A study of Homo sapiens with 12 samples.

Results

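The 39 genes described here encode the lysosomal proton pump and the nutrient-sensing machinery on the lysosome, and were taken from the 58721 genes of the expression tables by their symbols. They comprise 21 genes of the vacuolar ATPase (V-ATPase), of which 10 encode V1 subunits, 9 encode V0 subunits and 2 encode accessory subunits, and 18 genes of mTORC1 docking and of the TFEB family. The latter are the 5 Ragulator genes, 4 Rag GTPases, 4 genes of the FLCN-FNIP complex and the SLC38A9 sensor, 3 transcription factors and 2 mTORC1 genes. RNA-seq was performed on Pa-Tu-8902 and MIA PaCa-2, 2 human pancreatic ductal adenocarcinoma lines, each as a stable population that carries a doxycycline (dox)-inducible short hairpin against GOT1, the cytosolic aspartate aminotransferase. In each line, 3 libraries came from untreated cells and 3 from cells kept in dox for 5 days. Every group therefore carries the hairpin construct. A library without it was not analysed here, so dox itself and loss of GOT1 cannot be told apart, and the hairpin sequenced is not named in the sources used here. Total counts per library were 26226537 to 43406137.

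The V-ATPase is a rotary pump. Its cytosolic V1 sector hydrolyses ATP, and its membrane-embedded V0 sector moves protons into lysosomes, endosomes and the Golgi. The acidified lysosome is also the platform on which amino acids are sensed: Ragulator (LAMTOR1 to LAMTOR5) anchors the Rag GTPases, which recruit mTORC1, while SLC38A9 reports luminal arginine and FLCN with FNIP1 or FNIP2 acts on RagC and RagD. TFEB, TFE3 and MITF are basic helix-loop-helix factors held in the cytosol by mTORC1 when nutrients are plentiful, and they bind E-boxes (CACGTG) within the CLEAR element of many lysosomal genes, V-ATPase genes included.

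The E-box is shown first because it is the sequence that the TFEB family is known to bind. Here an E-box means CACGTG alone, and other forms of it were not searched. Upstream sequences of 250 bases before the RefSeq transcription start (GRCh38.p14) were found for 31 of the 39 genes, and both strands were covered because CACGTG is its own reverse complement. Of these, 9 genes held at least 1 CACGTG (29.03%), against 7.73% of the 27305 genes with such a sequence. The longer TCACGTGA, which contains it, was present in 3 members, ATP6V0D1, ATP6V1G1 and RRAGB, and in 1.04% of all genes. The E-box genes were 4 of the 15 V-ATPase genes matched, namely ATP6V0B, ATP6V0D1, ATP6V0E2 and ATP6V1G1. They were also 5 of the 16 others, namely FNIP1, LAMTOR1, LAMTOR4, RRAGB and RRAGC. Among the members called higher with dox in the results below, ATP6V0D1 held an E-box. ATP6AP1, ATP6V1B1, FNIP2, SLC38A9 and TFEB held none, and ATP6V0E1 had no sequence. The sequences below belong to genes whose counts changed with dox in at least 1 line, 2 with an E-box (in capitals) and 1 without. All 3 windows run into the 5′ part of their gene as annotated in GENCODE. The windows lie at chr16:67481158-67481407 (minus strand, ATP6V0D1), chr7:100148668-100148917 (plus strand, LAMTOR4) and chrX:154428427-154428676 (plus strand, ATP6AP1), and each ends at the base before the start site.
ATP6V0D1: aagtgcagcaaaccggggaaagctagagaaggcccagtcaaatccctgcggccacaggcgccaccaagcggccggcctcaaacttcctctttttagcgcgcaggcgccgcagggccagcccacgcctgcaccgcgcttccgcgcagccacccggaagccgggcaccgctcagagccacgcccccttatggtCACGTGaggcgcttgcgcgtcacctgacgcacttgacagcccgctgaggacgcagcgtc
LAMTOR4: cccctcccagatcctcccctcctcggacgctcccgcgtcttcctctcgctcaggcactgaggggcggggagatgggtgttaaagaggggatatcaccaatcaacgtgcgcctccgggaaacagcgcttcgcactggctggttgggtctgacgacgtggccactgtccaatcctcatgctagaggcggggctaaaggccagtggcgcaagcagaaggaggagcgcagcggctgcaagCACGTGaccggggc
ATP6AP1: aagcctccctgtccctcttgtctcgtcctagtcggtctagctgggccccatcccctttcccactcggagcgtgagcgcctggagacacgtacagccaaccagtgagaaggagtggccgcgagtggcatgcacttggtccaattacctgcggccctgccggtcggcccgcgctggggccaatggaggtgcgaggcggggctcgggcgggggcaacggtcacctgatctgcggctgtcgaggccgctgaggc
The E-box began 59 bases before the start of ATP6V0D1 and 14 bases before that of LAMTOR4. A match of letters is a description of these windows and not a test of binding. ATP6V0D2, RRAGD, ATP6V1C1, RRAGA, ATP6V1B2, ATP6V1H, ATP6V0E1 and ATP6V1A had no entry.

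The targeted gene and the labelled cell type were checked before the members were compared. GOT1 was at 78.3 to 83.4 TPM, the abundance of a gene scaled for its length and for the depth of the library, in untreated and 3.29 to 4.51 TPM in dox-treated Pa-Tu-8902, and at 38.9 to 44.1 and 1.68 to 1.95 TPM in MIA PaCa-2. All 6 epithelial carcinoma markers reached 1 TPM in Pa-Tu-8902, and 4 of the 6 did in MIA PaCa-2, where EPCAM and CDH1 stayed below it. Markers of leukocytes, endothelium, acinar cells, melanocytes, osteoclasts and intercalated cells each summed to at most 4.62 TPM in any library. In Pa-Tu-8902 the 4 fibroblast markers summed to 3.47 to 6.38 TPM without dox and 17.9 to 21.6 TPM with it. COL1A1 was the only one of them to reach 1 TPM, and the part of these genes in the results below was not tested. Untreated replicate 2 of MIA PaCa-2 stood farther from its group than the other libraries there. Its counts gave chi-square values of 25.5 and 27.3 for each degree of freedom against its replicates, which gave 6.40 between themselves. In Pa-Tu-8902 the largest such value was 20.6, between dox-treated replicates 1 and 2, which gave 7.21 and 8.09 against replicate 3. These are bulk samples, so fewer cells expressing a gene and less RNA per cell cannot be told apart.

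Whether dox altered the V-ATPase subunits and the docking and TFEB-family genes alike was examined first. The log2 fold change was positive for most V-ATPase genes in both lines, and a larger share of them than of the other members rose in each line. A gene was called when the quasi-likelihood test of edgeR gave a Benjamini-Hochberg adjusted p below 0.01 and its fold change was at least 1.5. The adjusted p alone was used as a second rule, because most changes were smaller than 1.5-fold. In Pa-Tu-8902, 19 V-ATPase genes had enough counts to be tested, and 11 of them (57.9%) were higher on the adjusted p alone, against 19.0% of all 14949 genes tested. The 11 include ATP6V1B1, which reached the count filter only through the dox-treated libraries and so had to differ. Only 1 was lower, against 19.1% of all genes. Of the 17 other members tested, 4 (23.5%) were higher and 1 was lower. The median log2 fold change was 0.33 for the V-ATPase genes, 0.13 for the others and 0.0014 for all genes. The first was the same with ATP6V1B1 at its lower bound, which was fixed in advance because that bound also lies above the median.

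In MIA PaCa-2, of 18 V-ATPase genes tested, 7 (38.9%) were higher on the adjusted p alone, against 12.6% of all 14589 genes, and 1 was lower, against 14.7%. Of the 18 other members, 5 (27.8%) were higher and 3 (16.7%) were lower. The medians were 0.17 for the V-ATPase genes, 0.080 for the others and -0.0089 for all genes. A positive log2 fold change, passing or not, was found for 17 of 19 V-ATPase genes in Pa-Tu-8902, against 10 of 17 of the others. These numbers were 16 of 18 and 11 of 18 for MIA PaCa-2. Among all genes tested, the positive share was 50.2% (Pa-Tu-8902) or 49.1% (MIA PaCa-2). The other members, at 58.8% and 61.1%, lay nearer to that share than the V-ATPase genes, at 89.5% and 88.9%.

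At both limits, 7 members were called higher in Pa-Tu-8902, where 9.22% of all genes were, and none was called lower, where 7.12% were. The 7 were ATP6V0D1, ATP6V0E1, ATP6AP1, FNIP2, SLC38A9, TFEB and, with the filter just named deciding its entry, ATP6V1B1. The other 6 remained when 10 counts were required in every library. In MIA PaCa-2, FNIP2 and SLC38A9 were called higher, against a background of 4.36%, and LAMTOR4 was called lower, against 7.64%. No V-ATPase gene was called in MIA PaCa-2 at these limits, although 8 of them passed the adjusted p alone. With effective gene lengths as offsets in the fit ATP6V0A1 was called there (0.63, adjusted p = 0.000355).

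**Figure D1:**
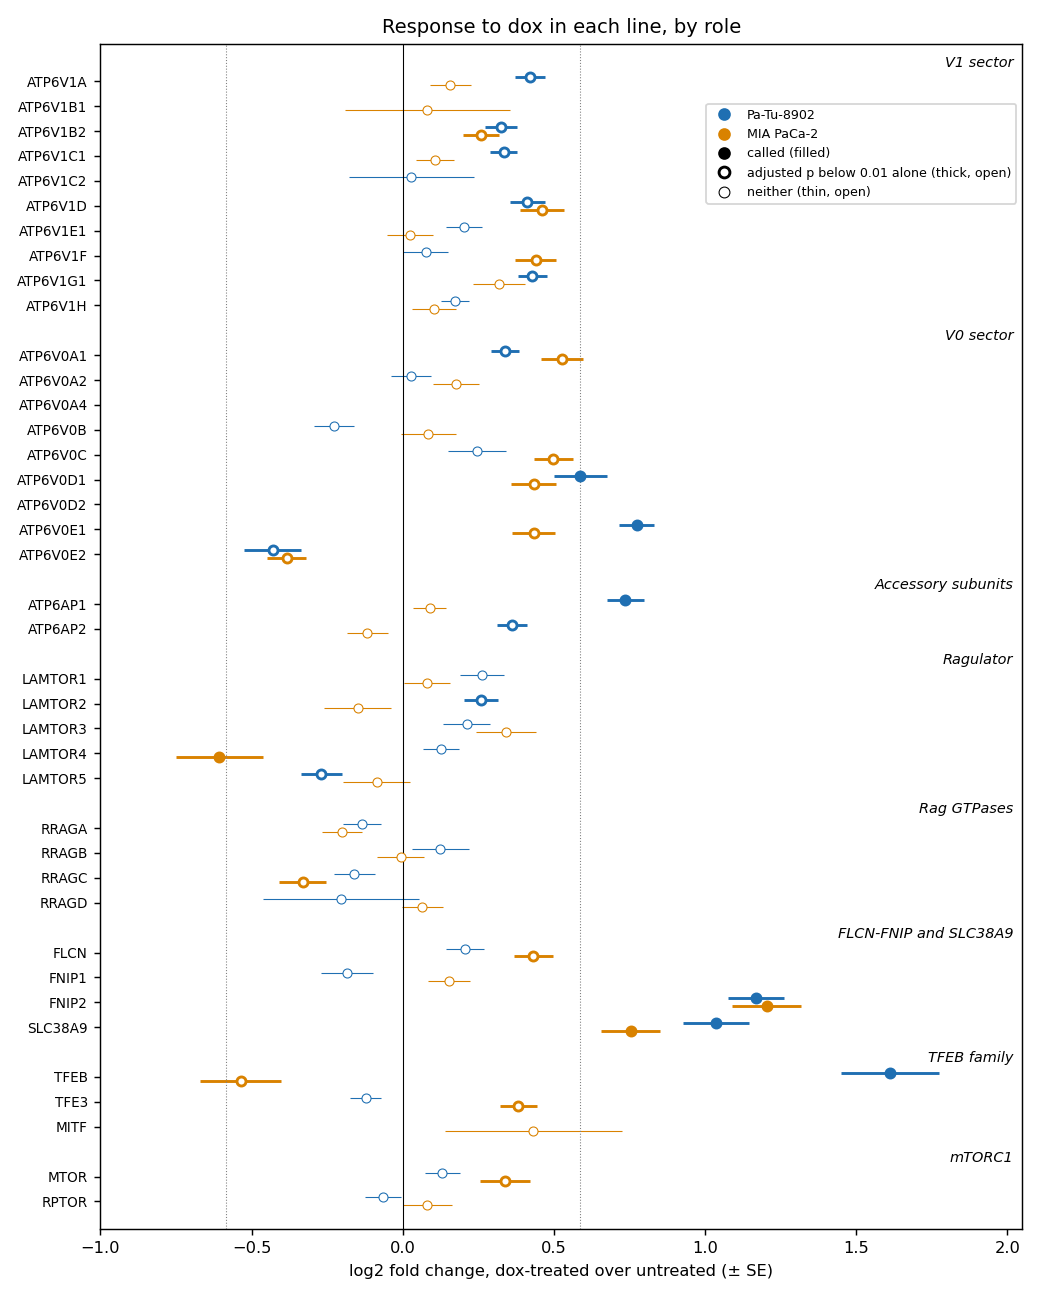
Log2 fold change of each tested member with dox (x axis, with its standard error) in Pa-Tu-8902 and MIA PaCa-2, grouped by role, with dotted lines at a fold of 1.5 in either direction. Most V-ATPase genes lie to the right of 0 in both lines, FNIP2 and SLC38A9 lie farthest to the right in MIA PaCa-2, and TFEB lies on opposite sides of 0 in the 2 lines; ATP6V1B1 in Pa-Tu-8902 is not drawn because its untreated counts were at the floor.

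The sums of TPM per role, which weigh genes by abundance and length, are given next for both sets. The 21 V-ATPase genes summed to 1224 ± 27.0 TPM (SD, n = 3) in untreated and 1583 ± 41.5 TPM in dox-treated Pa-Tu-8902, a 1.29-fold difference with no overlap between the groups. In MIA PaCa-2 they summed to 1549 ± 47.8 and 1977 ± 27.3 TPM, a 1.28-fold difference, again with no overlap, and the fold was 1.18 when normalized counts were summed. The 18 other genes summed to 746 ± 16.1 and 825 ± 17.0 TPM in Pa-Tu-8902, 1.10-fold and without overlap. In MIA PaCa-2 they summed to 937 ± 38.2 and 921 ± 44.7 TPM, 0.983-fold with overlapping groups, and this value changed direction to 1.08-fold when normalized counts were summed. No p was computed for a sum over chosen genes.

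**Figure D2:**
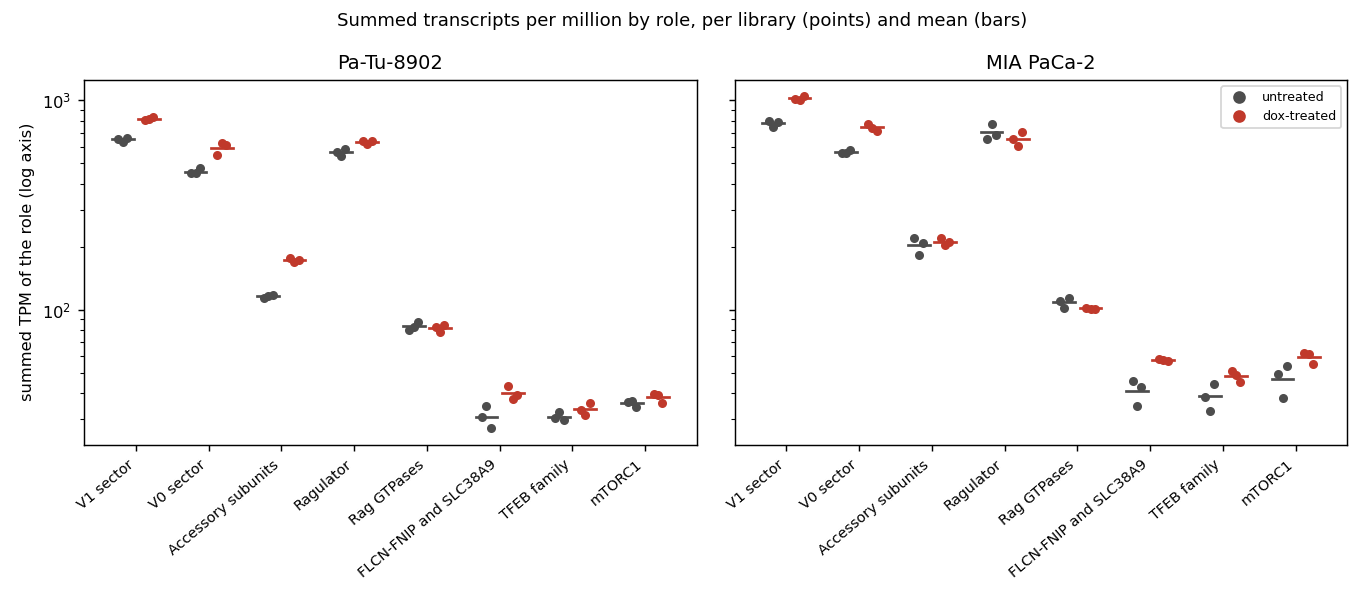
Summed TPM of each role (y axis, log scale) in every library of Pa-Tu-8902 (left) and MIA PaCa-2 (right), with points for libraries and bars for the mean of 3. The V1 and V0 sums of dox-treated libraries lie above all untreated ones in both lines, the accessory subunits do so in Pa-Tu-8902 alone, and the sums of the Rag GTPases with dox overlap the untreated ones in both lines.

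On the adjusted p alone, 6 of the 10 V1 genes tested rose in Pa-Tu-8902, against 19.0% of all genes. The 6 include ATP6V1B1, which had to differ because of the count filter. In MIA PaCa-2, 3 of the 9 tested rose, against 12.6%. None fell in either line. ATP6V1A encodes the catalytic A subunit, which binds the ATP that is hydrolysed. Its TPM was 24.9, 25.9 and 24.2 without dox and 35.3, 36.0 and 34.9 with dox in Pa-Tu-8902, while MIA PaCa-2 had 24.9, 19.0 and 22.1 without and 26.1, 25.6 and 23.9 TPM with dox. All dox-treated libraries of Pa-Tu-8902 were higher than the untreated ones, with a log2 fold change of 0.42 ± 0.050 (SE) and an adjusted p of 5.06e-05, while the MIA PaCa-2 value of 0.16 did not pass (adjusted p = 0.0847).

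ATP6V1D encodes the D subunit of the central rotor shaft. It was at 47.0, 48.8 and 46.9 TPM in untreated and 62.5, 64.9 and 58.3 TPM in dox-treated Pa-Tu-8902. Levels in MIA PaCa-2 were 75.0, 61.6 and 63.4 TPM without dox and 92.4, 97.5 and 86.6 TPM with it. The groups were separate in both lines, with rises of 0.41 ± 0.057 (adjusted p = 0.000147) and 0.46 ± 0.073 (adjusted p = 0.000453) on the log2 scale. Their difference of -0.049 ± 0.096 did not pass (adjusted p = 0.778).

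ATP6V1B2, the widely expressed form of the B subunit, also rose in both lines, by 0.33 and 0.26 (adjusted p = 0.000451 and 0.00429). The latter did not pass in 6 of 13 alternatives, which were the replicate block (0.0247), effective lengths as offsets (0.0223), and the fits without untreated replicate 3 (0.023), dox-treated replicate 1 (0.0196), 2 (0.0391) or 3 (0.0225) of MIA PaCa-2. ATP6V1G1 and ATP6V1C1, parts of the peripheral stalks and of their link to V0, rose in Pa-Tu-8902 by 0.43 and 0.33, with values of 0.32 and 0.11 in MIA PaCa-2 that did not pass. ATP6V1F, a subunit of the central rotor, was the most abundant V-ATPase gene on the TPM scale in both lines. It rose by 0.44 in MIA PaCa-2 (adjusted p = 0.000379), from 313 to 341 TPM without dox to 452 to 488 TPM with it, and its value in Pa-Tu-8902 was 0.077 (adjusted p = 0.419). ATP6V1E1 and ATP6V1H, of the peripheral stalk and of its regulatory cap, had values of 0.20 and 0.17 in Pa-Tu-8902 that missed the threshold (adjusted p = 0.0155 and 0.0101), and those for MIA PaCa-2 were 0.023 and 0.10. ATP6V1C2, a form of the C subunit with restricted expression, was at 1.25 to 2.83 TPM in untreated Pa-Tu-8902 (0.028, adjusted p = 0.923) and had too few counts to be tested in the other line.

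ATP6V1B1, the form of the B subunit known from acid-secreting cells of the kidney and inner ear (chr2:70935900-70965431, GRCh38), was hardly detected in untreated Pa-Tu-8902. The counts were 0, 2 and 0 in the untreated libraries and 21, 27 and 17 in the dox-treated ones. The groups did not overlap, and dox-treated cells were at least 6.31-fold higher when each untreated library was set to a floor of 3 counts. No p is given, because the gene entered the fit only through the libraries in which it was high. It had too few counts to be tested when 10 counts were required in every library or when any 1 dox-treated library was left out. The counts in MIA PaCa-2 were 31.2, 48.8 and 39.4 without and 29.4, 43.97 and 48.3 with dox, and the groups overlapped. Even after dox, ATP6V1B1 gave under 1% of the summed TPM of both B subunits in Pa-Tu-8902, since ATP6V1B2 made up 99.2%, 99.4% and 99.5% of it. The 4 intercalated cell markers summed to 0.19 to 0.40 TPM without and 0.40 to 0.74 TPM with dox there, and none of them reached 1 TPM. Among them AQP6 had 8, 8 and 4 counts without and 39, 33 and 22 counts with dox, while SLC26A4 moved the other way, with 6, 4 and 12 counts without and 1 in each library with dox. FOXI1 and SLC4A1 had at most 3 counts in any Pa-Tu-8902 library, and the part of these markers in the counts of ATP6V1B1 was not tested.

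The 9 V0 genes included the V-ATPase gene with the smallest p in Pa-Tu-8902, ATP6V0E1, and the only one that fell in either line, ATP6V0E2. ATP6V0A4 and ATP6V0D2, kidney and osteoclast forms, had too few counts to be tested in either line, with at most 0.10 TPM. On the adjusted p alone, 3 of the 7 others rose and 1 fell in Pa-Tu-8902, against 19.0% and 19.1% of all genes. In MIA PaCa-2, 4 of the 7 rose and 1 fell, against 12.6% and 14.7%, so the falls were near the share over all genes in both lines. ATP6V0A1 encodes a form of the proton-path a subunit and was more abundant here than ATP6V0A2. It was at 21.7, 24.6 and 21.4 TPM without and 31.0, 30.1 and 28.9 TPM with dox in Pa-Tu-8902, while MIA PaCa-2 had 17.8, 16.6 and 20.4 without and 30.6, 31.4 and 26.8 TPM with dox. The groups were separate in both lines, with log2 fold changes of 0.34 ± 0.047 (adjusted p = 0.000137) and 0.53 ± 0.071 (adjusted p = 0.000143). TCIRG1, which encodes another form of this subunit, was not counted with the V0 genes. Its untreated level exceeded that of ATP6V0A1, at 58.8 to 68.8 TPM (Pa-Tu-8902) and 21.8 to 28.3 TPM (MIA PaCa-2). After treatment it was at 53.4 to 95.4 and 21.45 to 22.17 TPM, the latter below ATP6V0A1. Neither change of TCIRG1 passed (0.10, adjusted p = 0.326, and -0.16, adjusted p = 0.0903).

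ATP6V0C encodes the proteolipid c of the rotating ring. Its TPM was 141, 141 and 152 without and 156, 194 and 193 with dox in Pa-Tu-8902, where the log2 fold change of 0.25 did not pass (adjusted p = 0.0522) and the normalized counts of the groups overlapped. In MIA PaCa-2 it rose from 129, 115 and 125 TPM to 189, 189 and 167 TPM (0.50 ± 0.065, adjusted p = 0.000115). ATP6V0B, another proteolipid of the ring, and ATP6V0A2 passed in neither line, with values of -0.23 and 0.026 in Pa-Tu-8902, against 0.085 and 0.18 for MIA PaCa-2.

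ATP6V0D1 (chr16:67438014-67481181), whose E-box is shown above, encodes the ubiquitous d subunit that couples the rotor to the ring. It was at 68.0, 66.2 and 70.3 TPM without and 98.8, 120 and 104 TPM with dox in Pa-Tu-8902. MIA PaCa-2 cells had 117, 122.8 and 123.1 TPM without and 176, 172 and 159 TPM with dox. No dox-treated library overlapped an untreated one. The log2 fold changes were 0.59 ± 0.087 (adjusted p = 0.000246) and 0.43 ± 0.074 (adjusted p = 0.000738). The first lay at the fold limit, and 5 of 13 alternatives put it below, from 0.49 without dox-treated replicate 2 to 0.58 with the replicate block, although the adjusted p stayed below 0.01 in all 13. Leaving out untreated replicate 1 or 2 gave 0.57 and 0.55.

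ATP6V0E1 (chr5:172983771-173035445) and ATP6V0E2, paralogues that encode the small e subunit, moved in opposite directions in both lines. ATP6V0E1 was at 89.9, 87.3 and 92.7 TPM without and 158, 164 and 165 TPM with dox in Pa-Tu-8902, while MIA PaCa-2 had 141, 144 and 149 without and 211, 201 and 203 TPM with dox. ATP6V0E2 was at 43.15, 44.03 and 44.8 TPM without and 29.7, 37.1 and 36.2 TPM with dox in Pa-Tu-8902, while MIA PaCa-2 had 49.6, 48.7 and 54.6 without and 40.2, 41.6 and 39.8 TPM with dox. For each gene the dox-treated and untreated libraries were fully separate in both lines.

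ATP6V0E1 rose by 0.77 ± 0.057 in Pa-Tu-8902 (adjusted p = 1.6e-06) and by 0.43 ± 0.071 in MIA PaCa-2 (adjusted p = 0.000598). ATP6V0E2 fell by 0.43 ± 0.094 (adjusted p = 0.00291) and by 0.38 ± 0.065 (adjusted p = 0.000698), and the first of these did not pass without untreated replicate 3 (0.0101) or dox-treated replicate 3 (0.0131) of Pa-Tu-8902. As a share of the TPM of both paralogues, ATP6V0E1 took 66.5% to 67.6% without and 81.5% to 84.1% after dox in Pa-Tu-8902, while in MIA PaCa-2 it took 73.2% to 74.8% without and 82.8% to 84.0% with dox. The ranges of the 2 lines were separate without dox and overlapped with it. This pair and its share were picked after the values were seen and carry no test.

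Both accessory subunits rose in Pa-Tu-8902 and neither passed in MIA PaCa-2. ATP6AP1 (chrX:154428633-154436516) encodes Ac45, which takes part in assembly of the pump and in its delivery along the secretory pathway. It was at 45.2, 46.1 and 48.5 TPM without and 79.5, 83.6 and 81.8 TPM with dox in Pa-Tu-8902, while MIA PaCa-2 had 123.04, 106 and 120 without and 131, 126 and 126 TPM with dox. The groups were separate in both lines, but far more so in Pa-Tu-8902 (0.74 ± 0.061, adjusted p = 3.88e-06), and the value in MIA PaCa-2 was 0.089 ± 0.056 (adjusted p = 0.226). ATP6AP2, the prorenin receptor and second accessory subunit, rose by 0.36 in Pa-Tu-8902 (adjusted p = 0.000156) and had a value of -0.12 in MIA PaCa-2 (adjusted p = 0.19). CACGTG was absent from the window shown for ATP6AP1, which was among the called genes.

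**Figure D3:**
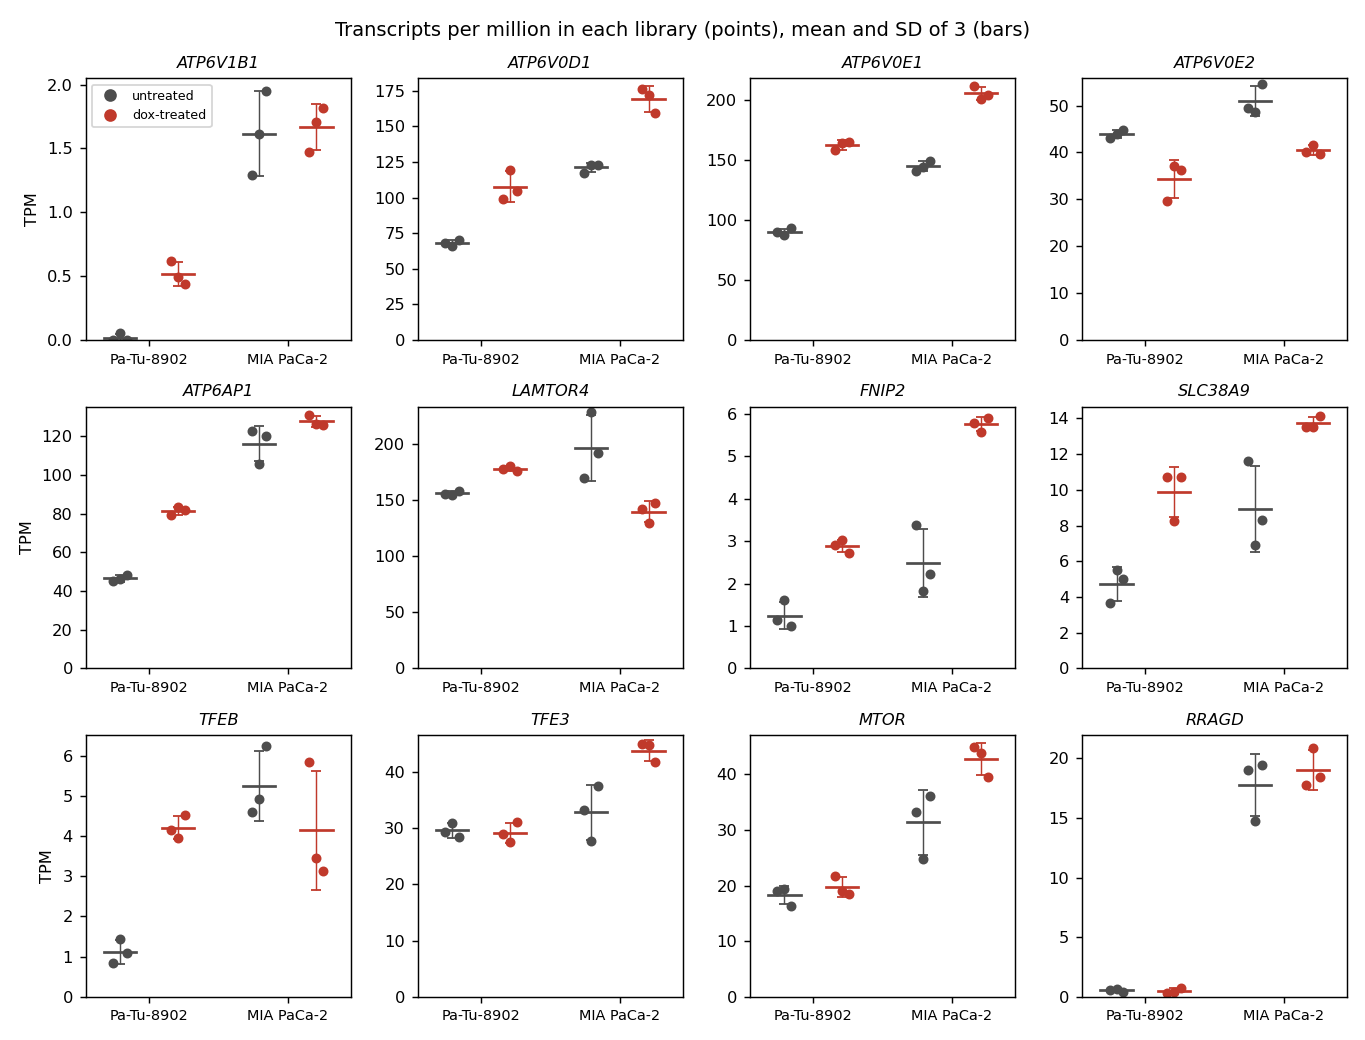
TPM (y axis, from 0) of 12 members in each library of the 2 lines without and with dox, with bars for the mean and SD of 3 libraries. With dox ATP6V0E1 is higher and ATP6V0E2 lower in both lines, FNIP2 and SLC38A9 are higher in both, TFEB is higher in Pa-Tu-8902 but not in MIA PaCa-2, and RRAGD lies far higher in MIA PaCa-2, with dox groups that overlap within each line.

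The 5 Ragulator genes, the scaffold of the lysosomal docking site, did not move as a unit. In Pa-Tu-8902, LAMTOR2 rose by 0.26 (adjusted p = 0.00289) and LAMTOR5 fell by 0.27 (adjusted p = 0.00746). Neither was stable: LAMTOR2 did not pass in 5 and LAMTOR5 in 6 of 13 alternatives, among them those without untreated replicate 1 (0.0134 and 0.0332) and without dox-treated replicate 3 (0.0108 and 0.035). LAMTOR2 also missed without untreated replicate 2 (0.017), and LAMTOR5 without untreated replicate 3 (0.0225) or dox-treated replicate 2 (0.0314). LAMTOR1, which carries the lipid anchor, and LAMTOR3 had values of 0.26 and 0.21 that did not pass. For MIA PaCa-2 the values of LAMTOR1, LAMTOR2, LAMTOR3 and LAMTOR5 were 0.080, -0.15, 0.34 and -0.087, of which none passed.

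LAMTOR4 (chr7:100148912-100155944) was the only member called lower in either line. Its normalized counts were 1367, 2176 and 1522 without and 1147, 1016 and 1159 with dox in MIA PaCa-2, and 1372, 1356 and 1397 against 1470, 1611 and 1417 in Pa-Tu-8902. Every dox-treated library of MIA PaCa-2 was lower than every untreated one, but untreated replicate 2 was far above its replicates. The log2 fold change was -0.61 ± 0.14 (adjusted p = 0.00556), and it was -0.39 (adjusted p = 0.000129) without that library, below the fold limit. Leaving out dox-treated replicate 1, 2 or 3 gave adjusted p-values of 0.0132, 0.024 and 0.0173, and the paired fit with the replicate block gave -0.58. In Pa-Tu-8902 the value was 0.13 (adjusted p = 0.0995), in the opposite direction.

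The 4 Rag GTPases, which form heterodimers of RagA or RagB with RagC or RagD, held no gene that rose in either line. RRAGA, the most abundant of them in TPM, had values of -0.13 (Pa-Tu-8902) and -0.20 (MIA PaCa-2) that did not pass (adjusted p = 0.103 and 0.0309). RRAGB had values of 0.12 and -0.0065 (adjusted p = 0.301 and 0.953). RRAGC fell by 0.33 in MIA PaCa-2 (adjusted p = 0.00542) and had a value of -0.16 in Pa-Tu-8902 (adjusted p = 0.0695). The former did not pass with the replicate block (0.0106), with effective lengths as offsets (0.0166), without untreated replicate 1 (0.0209), or without dox-treated replicate 1 (0.0105), 2 (0.0291) or 3 (0.0238).

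RRAGD (chr6:89364616-89412273) was expressed mainly in MIA PaCa-2. It was at 0.57, 0.69 and 0.44 TPM without and 0.29, 0.44 and 0.78 TPM with dox in Pa-Tu-8902. The MIA PaCa-2 libraries were at 19.0, 14.8 and 19.5 TPM without and 17.7, 20.9 and 18.5 TPM with dox. The dox groups overlapped within each line, with adjusted p-values of 0.535 and 0.479. RRAGC made up 95.6% to 97.4% of the summed TPM of RRAGC and RRAGD in untreated Pa-Tu-8902 but 46.8% to 52.3% in untreated MIA PaCa-2, where its share was 40.2% to 46.6% with dox. These shares count RRAGD-203, a transcript not annotated as protein-coding. In MIA PaCa-2 it held 48.4% of the TPM of RRAGD without and 48.0% with dox, but 11.5% and 11.2% of its counts.

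The FLCN-FNIP complex and SLC38A9 held the 2 members called in both lines. FNIP2 (chr4:158769026-158908050), a partner of folliculin, was at 1.13, 1.6 and 0.99 TPM without and 2.92, 3.02 and 2.73 TPM with dox in Pa-Tu-8902. Levels in MIA PaCa-2 were 3.37, 1.83 and 2.22 TPM without and 5.78, 5.58 and 5.90 TPM with dox. No groups overlapped. The rises were 1.17 ± 0.093 (adjusted p = 2.75e-06) and 1.20 ± 0.11 (adjusted p = 1.13e-05), and their difference between the lines was -0.033 ± 0.16 (adjusted p = 0.939).

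FNIP1, the paralogue of FNIP2, did not pass in either line, with values of -0.18 (adjusted p = 0.1) and 0.15 (adjusted p = 0.101). The share of FNIP2 in the TPM of both was 11.6% to 16.05% without dox and 27.8% to 32.6% after it in Pa-Tu-8902, and 13.6% to 18.4% against 26.3% to 27.98% in MIA PaCa-2. As with the e subunits, this share was chosen after the values were seen. FLCN, their partner, was at 17.3, 19.1 and 14.6 TPM without and 21.8, 20.02 and 19.4 TPM with dox in Pa-Tu-8902, while MIA PaCa-2 had 15.7, 14.2 and 18.4 without and 23.8, 22.8 and 21.8 TPM with dox. It rose in MIA PaCa-2 (0.43 ± 0.064, adjusted p = 0.000308), and the value of 0.21 in Pa-Tu-8902 did not pass (adjusted p = 0.0196).

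SLC38A9 (chr5:55625845-55773194), the arginine-regulated lysosomal transporter that contacts Ragulator, was at 3.67, 5.53 and 5.02 TPM without and 10.7, 8.28 and 10.7 TPM with dox in Pa-Tu-8902. MIA PaCa-2 cells had 11.6, 6.90 and 8.32 TPM without and 13.5, 13.5 and 14.1 TPM with dox. All dox-treated libraries were above the untreated ones of their line. The log2 fold changes were 1.04 ± 0.11 (adjusted p = 2.33e-05) and 0.75 ± 0.097 (adjusted p = 0.000108), and the latter was 0.57 (adjusted p = 0.0157) when effective lengths were used as offsets.

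**Figure D4:**
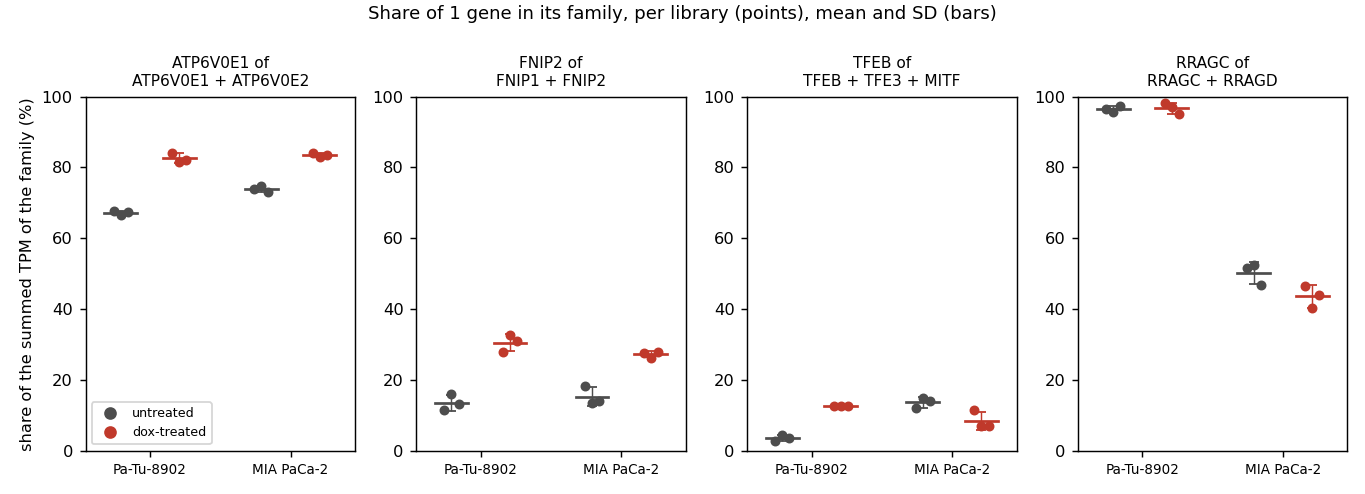
Share of 1 gene in the summed TPM of its family (y axis, percent) in each library of the 2 lines without and with dox, with bars for the mean and SD of 3. The shares of ATP6V0E1 and FNIP2 are higher with dox in both lines, that of TFEB is higher in Pa-Tu-8902 and lower in MIA PaCa-2, and that of RRAGC differs mainly between the lines.

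The TFEB family responded differently in the 2 lines. TFEB (chr6:41683978-41736259) was at 0.83, 1.43 and 1.09 TPM without and 4.15, 3.96 and 4.51 TPM with dox in Pa-Tu-8902. The MIA PaCa-2 libraries were at 4.59, 4.91 and 6.23 TPM without and 5.84, 3.45 and 3.13 TPM with dox. In Pa-Tu-8902 the groups were far apart, with a rise of 1.61 ± 0.16 (adjusted p = 1.51e-05), a call that held in all 13 alternatives. In MIA PaCa-2 the TPM overlapped, with dox-treated replicate 1 within the untreated range, while the normalized counts of 206, 227 and 237 against 183, 135 and 144 did not.

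TFEB fell by 0.54 ± 0.13 on the log2 scale in MIA PaCa-2 (adjusted p = 0.00789). The change did not pass with effective lengths as offsets (adjusted p = 0.179), without untreated replicate 1 (0.0112) or 3 (0.0219), or without dox-treated replicate 2 (0.0381) or 3 (0.0386). Without dox-treated replicate 1 it reached the fold limit, at -0.68 (adjusted p = 0.00404).

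TFE3, the most abundant factor of the family on the TPM scale, was at 29.4, 31.0 and 28.5 TPM without and 28.9, 27.5 and 31.1 TPM with dox in Pa-Tu-8902, with a log2 fold change of -0.12 (adjusted p = 0.0638). Levels in MIA PaCa-2 were 33.2, 27.8 and 37.6 TPM without and 45.0, 44.8 and 41.8 TPM with dox, and the gene rose by 0.38 ± 0.062 (adjusted p = 0.000548). TFEB made up 2.74% to 4.40% of the summed TPM of the 3 factors without and 12.5% to 12.7% after dox in Pa-Tu-8902, and 12.03% to 14.9% against 6.93% to 11.4% in MIA PaCa-2. The TPM of TFE3 includes TFE3-204, a transcript annotated for nonsense-mediated decay. It held a mean of 46.2% of TFE3 without and 36.8% with dox in MIA PaCa-2, where the groups did not overlap. In Pa-Tu-8902 it held 34.9% and 38.9%, with overlap.

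MITF, the factor of the family known from melanocytes and osteoclasts, was at most 0.07 TPM in Pa-Tu-8902, where it had too few counts to be tested. MIA PaCa-2 cells had 0.35, 0.17 and 0.29 TPM without and 0.23, 0.27 and 0.26 TPM with dox, with no difference that passed (adjusted p = 0.265). Among the 5 melanocyte markers, TYR was at 0 in every MIA PaCa-2 library, TYRP1 was at 1.07 to 1.72 TPM without and 0.64 to 0.75 TPM with dox, and PMEL was at 0.12 to 2.24 TPM over all 6 libraries.

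Of the mTORC1 genes, MTOR rose in 1 line and RPTOR in neither. MTOR, the kinase, was at 19.0, 19.4 and 16.4 TPM without and 21.8, 19.0 and 18.5 TPM with dox in Pa-Tu-8902 (0.13, adjusted p = 0.0858). The MIA PaCa-2 libraries were at 33.1, 24.8 and 36.1 TPM without and 44.9, 43.8 and 39.5 TPM with dox, and the gene rose by 0.34 ± 0.082 (adjusted p = 0.00685). The latter did not pass with the replicate block (0.0114), without untreated replicate 1 (0.0138), or without dox-treated replicate 1 (0.0448) or 2 (0.0422). RPTOR, the scaffold of mTORC1 that binds the Rag GTPases, was at 17.3 to 17.8 TPM without and 17.2 to 19.9 TPM after dox in Pa-Tu-8902, while MIA PaCa-2 had 12.9 to 17.4 without and 15.6 to 17.4 TPM with dox, and the groups overlapped in both lines.

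Whether the response to dox differed between the lines was tested by the interaction term of a fit of all 12 libraries, in which 10.4% of 16544 genes were called. Of the 37 members tested, 4 were called, near the share over all genes, each with a more positive response in Pa-Tu-8902. The difference in log2 fold change was 2.15 ± 0.22 for TFEB (adjusted p = 1.1e-06), 0.65 ± 0.086 for ATP6AP1 (adjusted p = 2.42e-05), 0.73 ± 0.17 for LAMTOR4 (adjusted p = 0.00397) and 4.48 for ATP6V1B1 (adjusted p = 0.000216), whose size depends on its floor. That of LAMTOR4 was 0.53 without untreated replicate 2 of MIA PaCa-2, and its adjusted p was 0.0113 without dox-treated replicate 2 of that line and 0.0111 with effective lengths as offsets. ATP6V1B1 was too low to be tested here with 10 counts required in every library or with limma on log2(TPM + 1). On the adjusted p alone, ATP6AP2 differed in the same direction (0.48, adjusted p = 0.000571), and TFE3 in the other (-0.50, adjusted p = 0.000191), but neither passed with limma on log2(TPM + 1) (adjusted p = 0.0133 and 0.0345). MITF, which had at most 5 counts in any Pa-Tu-8902 library, passed both limits when dox-treated replicate 3 of that line was left out. No fold is given, because the other dox-treated libraries there were at 0. The 31 remaining members, FNIP2 and SLC38A9 included, showed no difference that passed.

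The untreated lines differed in a large part of all genes tested, members included, and 18 of the members tested were not called. Of 37 members tested, 3 were called higher in Pa-Tu-8902 than in MIA PaCa-2 (ATP6V1C2, ATP6V1H and LAMTOR1), where 29.4% of all genes were, and 16 were called lower, where 28.2% were. LAMTOR1 was at 144 to 158 TPM in Pa-Tu-8902 and 55.5 to 57.4 TPM in MIA PaCa-2, a log2 difference of 1.37 ± 0.081 (adjusted p = 3.06e-11). RRAGD was the most different of the genes lower in Pa-Tu-8902 by p, at -5.36 ± 0.11 (adjusted p = 1.46e-17). ATP6V1B1 was at least 13.8-fold higher in MIA PaCa-2, with the floor of 3 counts per library. TFEB (-2.10), RRAGB (-1.31), ATP6AP1 (-1.35), SLC38A9 (-1.05) and FNIP2 (-1.001) were also lower in untreated Pa-Tu-8902. This comparison and the dox comparison share the untreated Pa-Tu-8902 libraries.

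Transcript composition was examined for members with at least 5 TPM and at least 2 transcripts of at least 10% of the gene. In Pa-Tu-8902, 1 of 46 transcripts of 15 members moved by at least 10 percentage points without overlap between the groups, against 4.94% of all transcripts that met the same criteria. In MIA PaCa-2, 1 of 44 transcripts of 17 members did, against 5.90%. The protein-coding transcript FNIP1-205 took 25.8%, 30.0% and 25.8% of FNIP1 without and 31.7%, 43.6% and 47.2% with dox in Pa-Tu-8902. ATP6V0B-201, a protein-coding transcript of the proteolipid gene ATP6V0B (chr1:43974948-43978289), took 24.8%, 20.4% and 23.9% without and 9.14%, 10.3% and 12.7% with dox in MIA PaCa-2. Each gave p = 0.1 in a two-sided exact permutation test, the smallest that 3 libraries against 3 allow, so neither could reach 0.05.

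Genes around the pump and the docking site were read from 4 further lists. Of 19 tested targets of TFEB and TFE3 that are not members, 8 were called higher in Pa-Tu-8902, against 9.22% of all genes, and 13 were higher on the adjusted p alone, against 19.0%, with none lower and a median of 0.47. Among those with the smallest p were PSAP, the precursor of the saposins, the peptidase TPP1 and the sialidase NEU1. PSAP was at 164 ± 3.48 TPM without and 321 ± 15.2 TPM with dox (0.89), and TPP1 at 3.73 ± 0.40 and 9.40 ± 0.36 TPM (1.22). In MIA PaCa-2, 1 of 19 was called higher, near the 4.36% of all genes. On the adjusted p alone 6 were higher and 1 was lower there, against 12.6% and 14.7%, and the median was 0.11. The called gene was SQSTM1, an autophagy receptor, at 130 ± 5.41 and 218 ± 9.61 TPM (0.76, adjusted p = 3.27e-06).

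Of 15 tested genes of V-ATPase assembly and regulation, 2 were called higher in Pa-Tu-8902, against 9.22% of all genes, and none in MIA PaCa-2, against 4.36%, with medians of 0.0090 and -0.12. These counts were near the shares over all genes. The called genes were CLCN7 and OSTM1, the chloride-proton exchanger of lysosomes and its partner. OSTM1 was at 8.57 ± 1.18 TPM without and 24.3 ± 0.97 TPM with dox (1.45 ± 0.053, adjusted p = 1.75e-08), and CLCN7 at 23.0 ± 1.47 and 40.4 ± 1.61 TPM (0.74). In MIA PaCa-2 they passed the adjusted p alone, with 0.56 and 0.28.

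The GATOR, KICSTOR and amino acid sensor genes, which control the Rag GTPases, gave 3 called higher and 1 lower of 17 in Pa-Tu-8902, against 9.22% and 7.12% of all genes. In MIA PaCa-2, 1 of 16 was called higher and 1 lower, near the 4.36% and 7.64% of all genes. SEH1L, which is shared by GATOR2 and the nuclear pore, was lower with dox in both lines, from 35.0 ± 2.38 to 17.9 ± 1.19 TPM in Pa-Tu-8902 (-1.09) and from 67.2 ± 7.32 to 41.0 ± 1.24 TPM in MIA PaCa-2 (-0.76). SESN3, KPTN and the arginine sensor CASTOR1 were called higher in Pa-Tu-8902 (0.71, 0.64 and 1.55), and the leucine sensor SESN2 in MIA PaCa-2 (0.63). CASTOR1 was low in Pa-Tu-8902, at 0.36 to 0.93 TPM without and 1.82 to 2.06 TPM with dox. Of the 7 genes of mTORC1 and its RHEB-TSC arm, TBC1D7, a subunit of the TSC complex, was the 1 called higher in Pa-Tu-8902 (0.70), against 9.22% of all genes, and DEPTOR the 1 called lower in MIA PaCa-2 (-1.16, at under 1 TPM), against 7.64%.

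Proliferation genes were read beside these results. None of 10 was called in either line. On the adjusted p alone, 5 were lower in Pa-Tu-8902 (median -0.20), against 19.1% of all genes. In MIA PaCa-2, 1 was higher and 1 was lower (median 0.096), near the 12.6% and 14.7% of all genes. Their part in the changes of the 39 genes was not tested.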

How the data were processed

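Reads were trimmed with Trimmomatic 0.39 and quantified by RSEM 1.3.1 with STAR 2.5.2a on GRCh38 by the authors, per the labels and methods. They deposited expected counts, TPM and FPKM per gene and transcript, from strand-specific poly-A libraries. Expected counts were rounded and tested with edgeR 4.0.16 (glmQLFTest, TMM) in R 4.3.3, within each line, for genes reaching 10 counts in 3 or more libraries of the fit, with Benjamini-Hochberg adjustment over all genes tested. A called gene has an adjusted p below 0.01 and a fold of at least 1.5. Normalized counts are scaled within a line. The standard error is |log2 fold change|/√F. TPM, which is per length, was used for levels between genes, and FPKM in an alternative to the sums. Nothing in the labels says that replicates were separate cultures, so p-values measure the spread between these libraries. Libraries with the same number did not deviate together (correlations of -0.09 to 0.14), so no block was used in the reported fits.

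Members, roles and lists were chosen with earlier results of these data known. Values per library are given for members called in either line or differing between the lines, for TFEB, TFE3, MITF, MTOR, RPTOR, FLCN and RRAGD, and for the 3 largest changes of each set in each line. Genes of the lists are the called ones, at most 4 per list and line. 1 of these is not reported here. ATP6V1A, ATP6V0E2, FNIP1, ATP6AP2 and the other members named outside this rule were chosen after their values were seen. The targets, regulators and markers were written from general knowledge. Gene positions came from GENCODE release 44 on the same assembly. Alternatives were DESeq2 1.42.0, its size factors, other filters and thresholds, the replicate block, effective lengths as offsets, 1 fit of all 12 libraries, limma 3.58.1 on log2(TPM + 1) for fits across lines, and each library left out. Fits were tested on simulated data. A count of 0 allows up to 3 counts, for counting error only. The labels give dox at 1 uM/mL, a unit that is not a concentration, and the methods state 1 ug/mL. The columns held no comparisons by the authors.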

Additional observations from a re-analysis of the deposited data

Results flagged for a closer look

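Of 37 members tested, 4 had a response to dox that differed between the lines by the interaction term, near the 10.4% of all genes. The differences, as Pa-Tu-8902 minus MIA PaCa-2 on the log2 scale, were 2.15 for TFEB, 0.73 for LAMTOR4, 0.65 for ATP6AP1 and 4.48 for ATP6V1B1. For TFEB the within-line values lay on opposite sides of 0, at 1.61 (Pa-Tu-8902) and -0.54 (MIA PaCa-2), and those of LAMTOR4 did too, at 0.13 and -0.61. ATP6AP1 had values of 0.74 and 0.089. For ATP6V1B1 no untreated Pa-Tu-8902 library exceeded 2 counts, so the size of its difference rests on the prior count of the fit.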

How the results depend on the processing

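Of the recomputed counts, medians and sums, 242 stayed within 1.5 times the reported count or within the replicate spread, and 29 did not. Without a fold limit, 15 members were higher (41.7%) and 2 lower (5.56%) in Pa-Tu-8902, against 19.0% and 19.1% of all genes. In MIA PaCa-2, 12 were higher (33.3%) and 4 lower (11.1%), against 12.6% and 14.7%. Between the untreated lines, 5 were higher in Pa-Tu-8902. No share over all genes is given for that limit, so this count is not read further. LAMTOR4, the 1 member called lower in MIA PaCa-2, was lost in the paired fit with the replicate block (count 0) and with effective lengths as offsets (0), and the count ranged from 0 to 1 over single libraries left out. The block also lost the call of ATP6V0D1 in Pa-Tu-8902, and no other in the dox comparisons or their difference. Libraries sharing a replicate number did not deviate together (correlations of -0.09 to 0.14). Over 13 alternatives, 10 to 13 V-ATPase genes passed the adjusted p alone and were higher in Pa-Tu-8902, and 6 to 8 did so for MIA PaCa-2. The V-ATPase genes lower in Pa-Tu-8902 were 2 without a low-count filter and 0 to 2 without single libraries. The docking and TFEB-family genes lower there were 0 with effective lengths, 0 in 1 fit of all 12 libraries and 0 to 1 without single libraries. Those lower in MIA PaCa-2 were 0 with effective lengths and 0 to 3 without single libraries. Summed normalized counts gave 1.18-fold for the V-ATPase in MIA PaCa-2, and 1.05-fold (Pa-Tu-8902) and 1.08-fold (MIA PaCa-2) for the other genes. Without LAMTOR5, the most abundant, the other genes gave 1.17-fold in Pa-Tu-8902.

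Directions turned for values that had not passed. ATP6V1B1 in MIA PaCa-2 was -0.017 with effective lengths and -0.10 to 0.29 without single libraries, and MITF there was -0.12 with effective lengths. Between the lines, FNIP2 ranged from -0.18 to 0.10 and ATP6V1D from -0.081 to 0.027 without single libraries. The TFEB family without TFE3 summed to 0.797-fold in MIA PaCa-2, against 1.26-fold with it. The causes were not tested. ATP6V1B1, MITF and ATP6V1C2 rest on few reads.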
